A study of Mus musculus with 24 samples.

Results

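Replication-dependent histone genes make the bulk of the histone protein that is laid down on new DNA in S phase. This account follows them in the mouse retina through 8 CUT&RUN peak lists, from pups of postnatal day 2 (P2) and from animals of postnatal day 17 (P17). The members are the protein-coding genes of the RefSeq annotation of GRCm38.p6 whose current symbol, or older Hist1h to Hist4h symbol, follows the naming of this family. The rule used names only and no measured value. It found 67 genes among 21887 protein-coding genes on the main chromosomes: 6 H1, 18 H2A, 18 H2B, 12 H3 and 13 H4 genes.

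In CUT&RUN an antibody guides a nuclease to its target on chromatin, and the DNA cut free is sequenced. The series holds 24 libraries, each from 600000 retinal nuclei, with antibodies to SOX8, SOX9, H3K4me3 or H3K27ac or with nonspecific IgG. SOX8 had 4 libraries per age, made with 2 antibodies, and every other target had 2. The groups differ in age and antibody, and the labels give no genotype, treatment or sex. The retina was taken whole, so fewer cells with a peak and less signal per cell cannot be told apart. Each peak list covers 1 target at 1 age and gives only the position of each peak, with no height and no replicate, so every value below is a count without replicate error and no test between ages was possible.

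These genes lie in clusters, are short and have no introns, and their messages end in a stem-loop in place of a poly(A) tail. The stem-loop is bound by SLBP. NPAT, which cyclin E with CDK2 phosphorylates at the start of S phase, activates them in a nuclear body at the clusters. Their mRNA is abundant in dividing cells, such as the retinal progenitors of the newborn mouse, and scarce in cells that have left the cell cycle, such as the neurons and Müller glia of the older retina. H3K4me3 is found at active promoters, and H3K27ac at active promoters and enhancers. SOX8 and SOX9 are related transcription factors of progenitors and Müller glia.

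The members lay in 5 places. The Hist2 cluster on chromosome 3 held 10 (chr3:96219885-96270192), the Hist4 locus on chromosome 6 held H4f16 alone (chr6:136803993-136804431), and the Hist3 cluster on chromosome 11 held H2bu2 and H2aw (chr11:58948911-58955192). The Hist1 genes of chromosome 13 fell into a first cluster of 23 (chr13:21715711-22043658) and a second of 31 (chr13:23531044-23934913), with more than 500 kb between them. Peaks were counted within a gene or 1 kb on either side of it. Counts of members under a peak use this window, so a peak counted at a gene may touch only its flank.

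The promoters are shown first, as RefSeq gives them for GRCm38.p6. A promoter sequence was matched for 62 of the 67 members. Those printed are the 200 bases before the start of the RNA, 5′ to 3′ on the strand of the gene. Capitals mark exact matches, on either strand, to 6 short motifs. These are CCAAT (the box bound by NF-Y), TATAAA (the TATA box), ATTTGCAT (the octamer of H2B promoters, bound by OCT1), AAACACA (the box of H1 promoters), AACAAT (a core of SOX binding sites) and GGTCCG. The last lies in a shared stretch of the H4 promoters and was chosen after the sequences were seen. The first set holds, for each class, a member with a peak in 6 of 8 lists, the most of any member. Of members tied at 6, the first in chromosome order that had a promoter sequence was taken. At H1f1 the P2 SOX9 and P2 H3K4me3 peaks were counted through the 1 kb flank and ended upstream of the bases printed.
H1f1, chr13:23763468-23763667, + strand: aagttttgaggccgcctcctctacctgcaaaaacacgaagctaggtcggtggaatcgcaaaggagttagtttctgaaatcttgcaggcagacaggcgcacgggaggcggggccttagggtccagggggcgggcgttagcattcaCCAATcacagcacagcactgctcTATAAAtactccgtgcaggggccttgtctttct
H2aw, chr11:58954485-58954684, + strand: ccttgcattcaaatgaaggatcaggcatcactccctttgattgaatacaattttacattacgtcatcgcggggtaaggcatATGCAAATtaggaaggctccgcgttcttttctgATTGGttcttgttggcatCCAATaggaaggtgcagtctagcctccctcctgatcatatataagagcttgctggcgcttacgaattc
H2bc18, chr3:96269500-96269699, + strand: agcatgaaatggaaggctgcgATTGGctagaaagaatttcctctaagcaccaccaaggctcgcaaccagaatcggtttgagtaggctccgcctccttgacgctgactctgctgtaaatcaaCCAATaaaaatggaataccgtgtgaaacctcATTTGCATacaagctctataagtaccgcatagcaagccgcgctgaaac
H3c13, chr3:96268454-96268653, + strand: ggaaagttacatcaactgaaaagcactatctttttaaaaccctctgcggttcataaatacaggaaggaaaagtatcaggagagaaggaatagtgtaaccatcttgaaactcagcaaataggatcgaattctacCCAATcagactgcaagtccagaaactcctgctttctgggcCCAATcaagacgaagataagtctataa
H4c9, chr13:22041363-22041562, - strand: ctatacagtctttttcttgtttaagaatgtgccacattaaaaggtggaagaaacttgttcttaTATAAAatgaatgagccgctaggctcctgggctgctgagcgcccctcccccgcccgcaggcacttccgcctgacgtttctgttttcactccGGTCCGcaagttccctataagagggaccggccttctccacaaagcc

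The second set holds, for 4 classes, a member with no SOX peak and no H3K4me3 peak at either age. H1 had no such member.
H2ac18, chr3:96245297-96245496, + strand: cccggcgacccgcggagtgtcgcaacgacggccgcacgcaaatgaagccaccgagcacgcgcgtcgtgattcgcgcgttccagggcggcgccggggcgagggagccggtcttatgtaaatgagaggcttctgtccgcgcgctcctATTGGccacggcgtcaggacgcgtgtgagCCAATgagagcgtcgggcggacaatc
H2bc14, chr13:21721844-21722043, + strand: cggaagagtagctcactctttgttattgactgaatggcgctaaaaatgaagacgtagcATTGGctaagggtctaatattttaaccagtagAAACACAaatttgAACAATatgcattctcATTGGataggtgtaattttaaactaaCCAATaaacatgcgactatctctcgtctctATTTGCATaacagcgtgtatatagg
H3c14, chr3:96246485-96246684, + strand: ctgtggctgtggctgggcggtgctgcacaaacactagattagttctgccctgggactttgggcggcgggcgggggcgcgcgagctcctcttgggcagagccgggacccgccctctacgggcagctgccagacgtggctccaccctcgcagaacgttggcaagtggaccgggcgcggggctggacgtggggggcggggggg
H4c17, chr13:21811546-21811745, + strand: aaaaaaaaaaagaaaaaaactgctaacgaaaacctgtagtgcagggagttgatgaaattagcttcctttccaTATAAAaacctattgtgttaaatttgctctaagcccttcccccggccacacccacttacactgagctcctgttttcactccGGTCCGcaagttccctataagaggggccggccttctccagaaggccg
The promoters of H4c9, which had both SOX factors at P2, and of H4c17, which had no peak in any list, share a run of 38 bases that holds GGTCCG. H2aw and H2bc18 had both SOX factors and H2bc14 neither, yet all 3 hold CCAAT boxes and the octamer. AACAAT, the SOX core, is among the letters of H2bc14 and not among those of the first set.

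Over all members CCAAT, the octamer, AAACACA and GGTCCG were unevenly spread over the histone classes, while TATAAA was found in every class. Windows from 250 bases before to 50 after the start were searched on both strands. CCAAT was in 85.5% of the 62 member promoters and in 39.0% of the 17492 promoters of protein-coding genes. It was in every H1, H2A, H2B and H3 promoter searched and in 3 of 12 of H4. TATAAA was in 56.5% of members and 13.3% of genes. The octamer was in 21.0% of members and 1.71% of genes, at 7 H2A and 6 H2B promoters and at none of the other classes. AAACACA was in 5 of 6 H1 promoters, 14.5% of members and 6.13% of genes. GGTCCG was in 11 of 12 H4 promoters, 21.0% of members and 10.6% of genes. AACAAT was in 8.06% of members and 9.49% of genes. Of the 35 searched promoters of members with a P2 SOX9 peak, 2 held AACAAT, and of the 27 others 3 did. A match describes the letters of the window and is not a mapped site, and its absence says nothing of the factor.

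At P2, SOX9 peaks lay at most of the histone genes, and at P17 neither SOX list had a peak at any of them. P2 SOX9 peaks were at 38 of 67 members (56.7%, against 25.3% of all protein-coding genes) and P2 SOX8 peaks at 15 (22.4% against 13.5%). At P17 the SOX9 list had a peak at 0 members, where 14.0% of all genes had one, and the SOX8 list at 0, where 11.4% of all genes did. The promoter mark H3K4me3 was found at both ages at 37 members. It was at 47 at P2 (70.1% against 46.7% of genes) and at 39 at P17 (58.2% against 48.2%). H3K27ac was at 56 members at P2 (83.6% against 78.2%) and at 49 at P17 (73.1% against 53.9%). With peaks trimmed to 500 bp around their centres the share of members was below that of all genes for H3K27ac, at 67.2% against 77.1% at P2 and 44.8% against 50% at P17. P17 H3K4me3 was then at 44.8% of members against 46.5% of genes. Without the second Hist1 cluster, the largest, H3K27ac was at 77.8% against 78.2% at P2 and 52.8% against 53.9% at P17, and P17 H3K4me3 at 47.2% against 48.2%. The lists are of unequal length: the P2 H3K27ac list holds 287845 peaks and the P17 list 29909. The share of all genes is therefore the scale for each count, but it depends on gene length. Most histone genes are short, and a longer gene offers a wider window. With 1 kb on each side of the start, the same width for every gene, P2 H3K27ac was at 82.3% of 62 members against 65.0%. P17 H3K27ac was then at 69.4% against 46.7%, and P17 H3K4me3 at 53.2% against 45.4%.

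**Figure D1:**
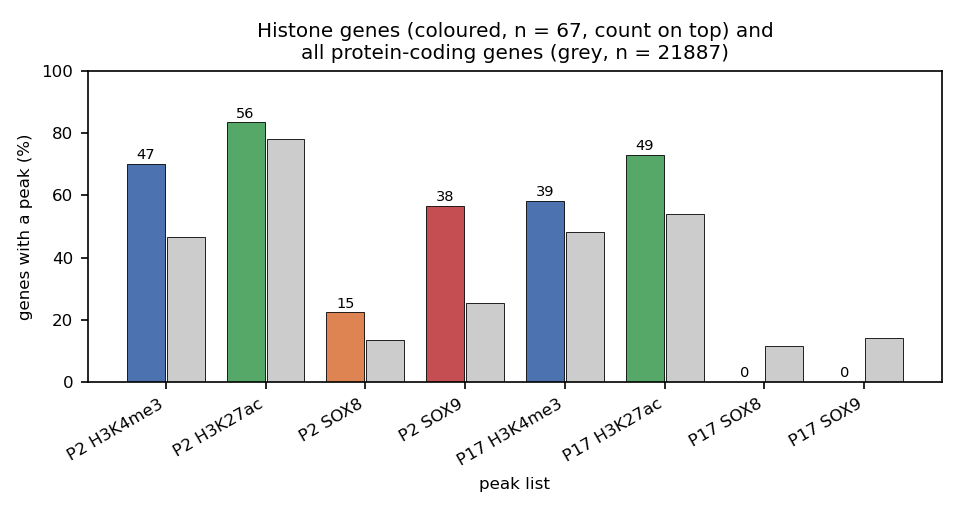
Share of genes (%) with a peak in the gene or 1 kb around it, for the 67 histone genes (coloured, count on top) and all 21887 protein-coding genes (grey), by peak list; there are no error bars because no list names a replicate. SOX9 stands at 38 histone genes at P2 and both SOX factors at 0 at P17, while H3K4me3 stands at 47 and 39.

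Gene by gene, all 38 members with a P2 SOX9 peak and all 15 with a P2 SOX8 peak had none at P17. Among all genes with a P2 peak, 60.7% had none at P17 for SOX9 and 48.2% for SOX8. The members share peaks, so the same was counted by peak. The 38 members lay under 20 distinct P2 SOX9 peaks, of which 0 overlapped a P17 SOX9 peak, against 31.1% of the 5476 peaks of that list. The 15 lay under 8 P2 SOX8 peaks, of which 0 overlapped a P17 SOX8 peak, against 45.8% of 2653.

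The marks of P17 were found at most places of these P2 SOX peaks, at shares near those of the whole lists. Of the 20 P2 SOX9 peaks at members, 16 (80.0%) overlapped a P17 H3K4me3 peak, against 77.5% of the list, and 18 (90.0%) a P17 H3K27ac peak, against 87.2%. Of the 8 P2 SOX8 peaks at members, 7 (87.5%) overlapped P17 H3K4me3, against 88.3% of the list, and 7 overlapped P17 H3K27ac, against 93.0%. H3K4me3 at both ages together with a P2 SOX9 peak was found at 31 members, of which 0 had a P17 SOX9 peak. Of all genes with that combination, 41.2% had one. With SOX8 in place of SOX9 the combination was found at 11 members, again with 0 at P17, against 53.4% of all such genes.

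The nearest P17 SOX peaks lay outside the clusters. The P17 lists hold only 2855 SOX9 and 2400 SOX8 peaks, and distances for other genes were not measured. Whether the distances below are unusual was thus not tested. The closest to any member was a SOX9 peak 41.3 kb from H2aw (chr11:58996504-59002452), and the closest of SOX8 was 208 kb from the same gene. From the first Hist1 cluster the nearest P17 peak of either factor was 2756 kb away, and from the second 865 kb. Other protein-coding genes within 1 Mb of a member numbered 234. P2 SOX9 peaks lay at 14.1% of them and P17 SOX9 peaks at 5.98%, so the surroundings of the clusters also had fewer genes with SOX9 peaks than the genome as a whole at both ages. These neighbours were chosen for counting after the distances had been seen.

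**Figure D2:**
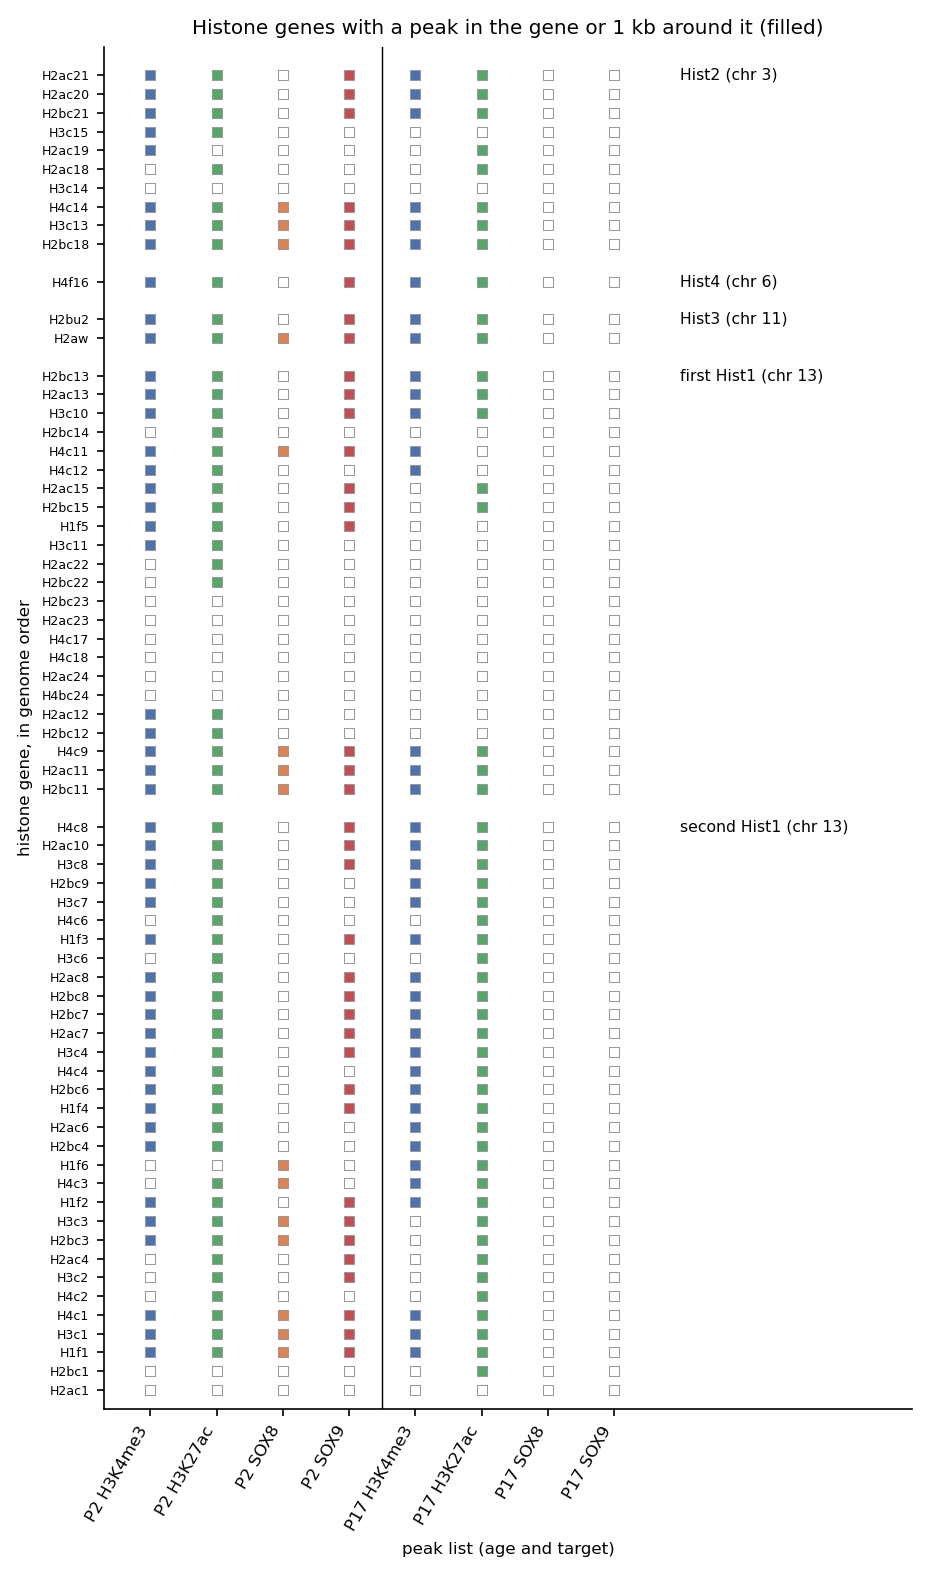
Presence (filled) or absence (open) of a peak at each of the 67 histone genes, in genome order within 5 places, in each of the 8 peak lists. The columns of P17 SOX8 and P17 SOX9 are empty, and in the first Hist1 cluster a run of 6 genes from H2bc23 to H4bc24 is empty in all lists.

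In the Hist2 cluster, 3 SOX9 peaks at P2 covered 6 of 10 members. A peak of 4007 bp lay over H2ac21, H2ac20 and H2bc21 (chr3:96218461-96222467), which had no SOX8 peak. A peak of 3377 bp lay at H4c14 (chr3:96261486-96264862), and a peak of 2873 bp over H3c13 and H2bc18 (chr3:96267551-96270423). SOX8 peaks of 3480 bp and 2376 bp lay at the same places as these last 2. H3c13 encodes histone H3, H2bc18 H2B and H4c14 H4, so the SOX8 peaks of this cluster touched 3 classes.

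H4f16, the H4 gene that stands alone, had a SOX9 peak of 2025 bp at P2 (chr6:136803205-136805229) and no SOX8 peak. In the Hist3 cluster H2bu2, an H2B gene, had a SOX9 peak of 2930 bp and H2aw, an H2A gene, both a SOX9 peak of 3063 bp and a SOX8 peak of 3023 bp. The P17 H3K4me3 list had a single peak of 11657 bp over H2bu2 and H2aw, the widest of that list at any member, where the P2 list had 2 peaks of 4523 and 6395 bp. The record of Trim17 (chr11:58954671-58973075) overlaps all of H2aw, so a peak there cannot be assigned to either gene.

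The first Hist1 cluster had 5 SOX9 peaks over 10 of 23 members at P2. They lay over H2bc13, H2ac13 and H3c10 (3051 bp), at H4c11 (1992 bp, the narrowest), over H2ac15 and H2bc15 (2058 bp), at the linker histone gene H1f5 (2837 bp), and over H4c9, H2ac11 and H2bc11 (4821 bp). SOX8 had 2 peaks here, of 1887 bp at H4c11 and of 4226 bp over H4c9, H2ac11 and H2bc11. The latter was the widest SOX8 peak at any member.

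The second Hist1 cluster had 9 SOX9 peaks over 19 of 31 members at P2. The widest at any member, 6828 bp, lay over H4c8, H2ac10 and H3c8 (chr13:23529803-23536630). A peak of 5606 bp took in H2ac8, H2bc8, H2bc7 and H2ac7 and ended within 1 kb of H3c4 (chr13:23569583-23575188). Linker histone genes had peaks of 4240 bp (H1f3), 3169 bp (H1f4) and 4156 bp (H1f2). The H1f4 peak also lay in the record of H2bc6, which is 37455 bp long, and a further peak of 3495 bp lay at the other end of that record. The remaining peaks lay over H3c3 and H2bc3 (2873 bp), over H2ac4 and H3c2 (4293 bp), and over H4c1 and H3c1 (2612 bp). The last of them ended within 1 kb of H1f1.

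SOX8 had 3 peaks in that cluster. Those over H3c3 and H2bc3 (3314 bp) and over H4c1, H3c1 and H1f1 (3673 bp) coincided with SOX9 peaks. The third, of 2504 bp, lay over H4c3 and within 1 kb of H1f6 (chr13:23697138-23699641). At both genes the P2 lists had neither SOX9 nor H3K4me3. H1f6 encodes the H1 of testis and H4c3 an ordinary H4. At P17 this place had an H3K4me3 peak of 2967 bp and an H3K27ac peak of 18808 bp. The pattern of H1f6 (P2 SOX8, P17 H3K4me3 and P17 H3K27ac alone) was held by 1 of the 21887 genes, H1f6 itself. This pattern rests on the 1 kb flank, since neither the SOX8 nor the P17 H3K4me3 peak reached the gene.

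**Figure D3:**
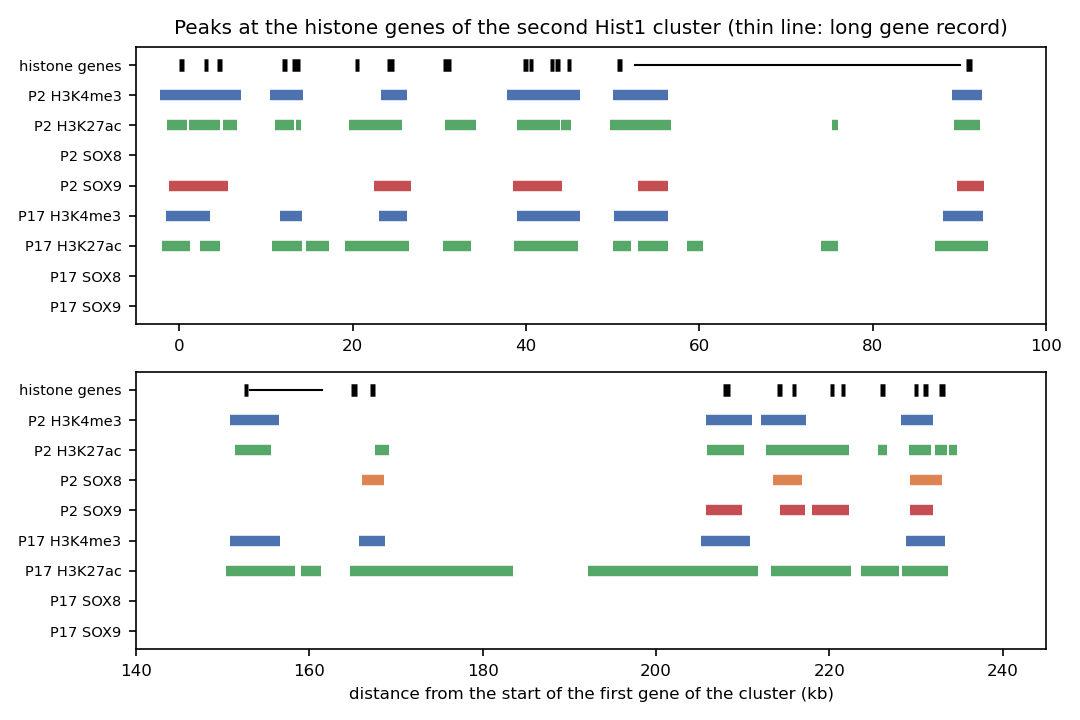
Peaks of each list (coloured bars) at the histone genes (black) of the second Hist1 cluster, by distance in kb from the start of its first gene; the upper panel shows the first 100 kb and the lower panel a later stretch, and the testis-type genes H2bc1 and H2ac1 lie outside both. P2 SOX9 peaks sit on groups of neighbouring genes, and the rows of P17 SOX8 and P17 SOX9 are empty.

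SOX8 peaks lay at fewer members than SOX9 peaks. Of the 15 members with a P2 SOX8 peak, 13 also had SOX9 (86.7%), against 95.4% of all genes with a P2 SOX8 peak. Of the 38 with SOX9, 34.2% also had SOX8, against 50.9% of all genes with a P2 SOX9 peak. Among the 47 members with P2 H3K4me3, 76.6% had SOX9, against 51.1% of all such genes, and 27.7% had SOX8, against 28.1%. The SOX8 share of H3K4me3-marked members was thus close to that of other marked genes. SOX9 without P2 H3K4me3 was found at 2 members, H2ac4 and H3c2, under 1 peak.

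Cover by P2 SOX peaks was higher at gene starts than 3 kb away, at the members as at all genes. Histone genes are short and these peaks wide, so a start cannot be told apart from the gene body or a close neighbour. SOX9 peaks covered the start itself at 33 of 62 members with a known start (53.2%, against 22.2% of all genes), 12 at 3 kb upstream (19.4% against 1.42%) and 7 at 3 kb downstream (11.3% against 1.64%). The highest cover was 35 members, at 700 bases upstream. SOX8 peaks covered 12 starts (19.4% against 11.8% of all genes), 2 positions at 3 kb upstream (3.23% against 0.537%) and 1 at 3 kb downstream (1.61% against 0.446%). Neighbouring genes lie within a few kb of each other here, which raises the cover away from a start. Inside the span of the clusters no P2 SOX8 or SOX9 peak lay away from a member. The P2 H3K4me3 list had 3 such peaks and the P2 H3K27ac list 24. Both lists are longer, with 9134 and 287845 peaks, against 5476 for SOX9 and 2653 for SOX8.

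**Figure D4:**
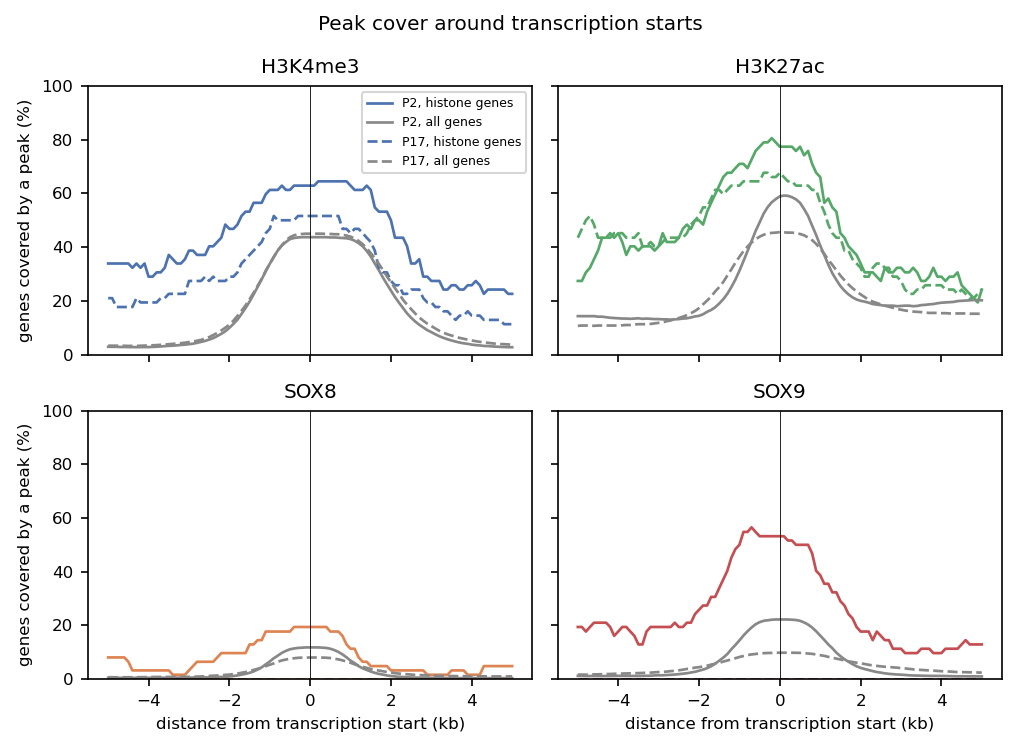
Share of genes (%) whose position at a given distance (kb) from the start of the RNA is covered by a peak, for 62 histone genes (coloured) and 17492 protein-coding genes (grey) at P2 (solid) and P17 (dashed). For SOX9 at P2 the histone genes reach 53.2% at the start and all genes 22.2%, and the dashed lines of the histone genes lie at 0 for both SOX factors.

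Peaks at members were wide, and many were shared. The median P2 SOX9 peak at a member measured 3116 bp, against 2668 bp over the list, and 11 of the 20 lay over 2 or more members. The median P2 H3K4me3 peak at a member measured 5177 bp, against 3542 bp over the list, and 16 of 23 lay over 2 or more members. The widest was 9372 bp, over H4c8, H2ac10 and H3c8. Of the 23, the 19 that overlapped P2 SOX9 had a median width of 5218 bp and the 4 that did not 3978 bp. These 4 lay over H3c15 and within 1 kb of H2ac19, over H2ac12 and H2bc12, over H2bc9 and H3c7, and over H2ac6 and H2bc4. For H3K27ac the widest peak at a member was 9603 bp at P2, over H3c3, H2bc3, H2ac4 and H3c2, and 19692 bp at P17, at H1f2.

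No class of histone was without SOX9 at P2. SOX9 peaks lay at 5 of 6 H1, 10 of 18 H2A, 10 of 18 H2B, 7 of 12 H3 and 6 of 13 H4 genes. SOX8 peaks lay at 2 H1, 2 H2A, 3 H2B, 3 H3 and 5 H4 genes. P2 H3K4me3 lay at 5 H1, 12 H2A, 13 H2B, 9 H3 and 8 H4 genes, and P17 H3K4me3 at 5, 9, 10, 6 and 9 of them. The H1 gene without P2 SOX9 was H1f6. Since genes of different classes lie under the same peak, the classes are not independent of each other.

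H2A and H2B genes often stand back to back and share a promoter. Of such pairs, 10 had both starts known, which lay 163 to 280 bases apart (median 203). A single P2 SOX9 peak lay over both genes of 5 pairs and none covered only 1 gene of a pair. Flanks of 1 kb were counted, and P2 SOX9 peaks at members measured at least 1992 bp. Little room was thus left for a peak at only 1 gene of a pair, so its absence carries little weight. A single P2 H3K4me3 peak covered 6 pairs, and a P17 H3K4me3 peak 4. The only pair with a SOX8 peak was H2ac11 and H2bc11, whose shared interval between the starts, on the strand of H2bc11, is shown because both factors and both marks met there at P2.
H2bc11, chr13:22042950-22043197, + strand: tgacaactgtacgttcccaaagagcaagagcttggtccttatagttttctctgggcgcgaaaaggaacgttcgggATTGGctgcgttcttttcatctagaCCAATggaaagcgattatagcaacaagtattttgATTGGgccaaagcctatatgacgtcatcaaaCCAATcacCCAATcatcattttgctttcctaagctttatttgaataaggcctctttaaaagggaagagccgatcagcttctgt
It holds 5 CCAAT boxes on either strand and no AACAAT. This pair was chosen for printing after its peaks had been seen.

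The marks differed in how they went with age among the clusters. In the first Hist1 cluster H3K4me3 was at 14 of 23 members at P2 and at 8 at P17, and H3K27ac at 17 and 8. In the second Hist1 cluster H3K4me3 was at 22 of 31 members at P2 and at 22 at P17, with 2 members in exchange for 2 others, and H3K27ac at 28 and 30. In Hist2 H3K4me3 was at 8 and 6 of 10, and H3K27ac at 8 and 8, with H2ac19 at P17 in place of H3c15 at P2. H4f16, H2bu2 and H2aw had both marks at both ages. Without replicates, a difference between clusters could not be tested.

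H3K4me3 was present at P2 and absent at P17 at 10 members, or 21.3% of those with a P2 peak, against 7.46% of all genes. They were H3c15 and H2ac19 in Hist2; H2ac15, H2bc15, H1f5, H3c11, H2ac12 and H2bc12 in the first Hist1 cluster; and H3c3 and H2bc3 in the second. Counted by peak, 19 of 23 P2 H3K4me3 peaks at members overlapped a P17 peak (82.6%), against 90.3% of the list, a smaller gap than by gene. Of the 10 members, 5 had had P2 SOX9 (H2ac15, H2bc15, H1f5, H3c3 and H2bc3). H2ac19 was counted at P2 through its 1 kb flank alone. The reverse, H3K4me3 at P17 only, was found at H1f6 and H4c3 through 1 peak, and at 1105 of all 21887 genes. That peak lay over H4c3 and touched only the flank of H1f6. No H3K4me3 at either age was found at 18 of 67 members and at 10565 of all genes.

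H3K27ac was present at P2 and absent at P17 at 10 members, 17.9% of those with a P2 peak against 31.8% of all genes. Of these, 9 lay in the first Hist1 cluster (H2bc14, H4c11, H4c12, H1f5, H3c11, H2ac22, H2bc22, H2ac12 and H2bc12) and 1 was H3c15. With gene and 5 kb flanks the count was 5, and with peaks trimmed to 500 bp around their centres it was 20 (29.9% of members against 27.7% of genes), so this count rests on how wide a peak or window is taken to be. H3K27ac at P17 only was found at 3 of 67 members, H2ac19, H1f6 and H2bc1, and at 130 of all 21887 genes. At H2bc1 the peak touched only the 1 kb flank.

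The commonest pattern was both marks at both ages with SOX9 at P2 and no SOX8, at 20 members (29.9%, against 7.29% of all genes). The same with SOX8 added was found at 10 (14.9% against 3.69%): H4c14, H3c13, H2bc18, H2aw, H4c9, H2ac11, H2bc11, H4c1, H3c1 and H1f1. Both marks at both ages with no SOX peak were found at 5 members, H2bc9, H3c7, H4c4, H2ac6 and H2bc4 (7.46% against 15.7%). H4c11 had both SOX factors and both marks at P2 and H3K4me3 alone at P17.

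No peak in any list was found at 8 members (11.9% against 20.9% of all genes): H3c14, H2ac1, and a run of 6 neighbours in the first Hist1 cluster, H2bc23, H2ac23, H4c17, H4c18, H2ac24 and H4bc24 (chr13:21806412-21837530). H2ac1 is a testis H2A gene by its older name. The other 7 have promoters copied elsewhere in the family. The promoters of H2bc23 and H4bc24, an H2B gene by its older symbol, were the same over all 300 bases. H4c17 and H4c18 shared a run of 285 bases, H2ac23 and H2ac24 a run of 200, and H3c14 and H3c15 a run of 231. Genes anywhere in the genome whose promoter equals that of another gene had P2 H3K4me3 in 7.79% of 398 cases, against 48.3% of 17094 other genes. Whether those 398 genes are expressed in the retina was not tested. Among 12 members sharing a promoter run of 50 bases or more with another member, 4 had P2 H3K4me3 and 4 P2 H3K27ac (33.3% each). The 50 other members with a promoter had them in 76.0% and 94.0%. H3c15, which shares its run with H3c14, had both marks at P2. How reads that align equally well to several places were treated is not given in the sources used here, so for these copies a missing peak cannot be told apart from reads that were not placed. With the 12 members left out whose promoter shares a run of 50 bases or more with that of another member, P2 SOX9 was at 37 of 55 (67.3%), P2 H3K4me3 at 43 (78.2%), and the P17 SOX lists at 0.

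Variant histone genes, which are expressed outside S phase too, had P2 SOX9 at 8 of 11 (72.7%, against 25.3% of all genes). P2 SOX8 was at 7 of the 11 (63.6% against 13.5%). At P17, SOX9 was at 2 (18.2%, against 14.0% of all genes) and SOX8 at 1 (9.09% against 11.4%). These were H3f3a, an H3.3 gene, and Macroh2a1, which had no SOX9 at P2, for SOX9, and H2az1, an H2A.Z gene, for SOX8. H3f3b, the other H3.3 gene, and H2az2, Macroh2a2, H1f0 and H1f10 had both factors at P2 and neither at P17. H2ax, the H2A of the DNA damage response, had SOX9 at P2. The SOX9 peak at H3f3a was 4661 bp at P2 and 3352 bp at P17. H3K4me3 was at all 11 at P2 and at 10 at P17, the exception being Cenpa, the centromere H3.

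Of 30 genes for factors that switch on, process, modify or carry histones, SOX9 was at 18 at P2 and 6 at P17, and SOX8 at 11 and 9, where all genes stand at 14.0% for P17 SOX9 and 11.4% for P17 SOX8. Slbp, whose product binds the stem-loop of the histone message, had both factors at both ages. So did Yy1, E2f3 and Ell. Npat, the activator of the clusters, had H3K4me3 at both ages and no SOX peak, and is named here for its role. Hinfp, the activator of H4 genes, had SOX9 at P2. Cramp1l and the S-phase activator gene E2f1 had both factors at P2, and E2f1 had H3K4me3 at P2 only. Pou2f1, which encodes OCT1, had both at P2 and SOX8 at P17. Ice1 had SOX9 at P2 and SOX8 at P17. Sympk, a part of the machinery that cuts histone messages, had SOX9 at P17 only. Cpsf3, which encodes the nuclease of that machinery, and the histone chaperone gene Asf1a had SOX9 at P2 only. Upf1, which acts in the decay of histone messages, had both at P2 and SOX8 at P17. Gon4l and Cstf2 had H3K4me3 at P17 and not at P2. Asf1b, Chaf1a, Chaf1b and Ccne1, like E2f1, had H3K4me3 at P2 and not at P17. Of these genes H3K4me3 was at 27 at P2 and 24 at P17.

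Markers of cell division and of cell types differed between the ages in the same lists. For scale, H3K4me3 was at 46.7% of all genes at P2 and 48.2% at P17. SOX9 was at 25.3% and 14.0% of all genes, and SOX8 at 13.5% and 11.4%. Of 16 proliferation genes, H3K4me3 was at 16 at P2 and at 3 at P17 (Pcna, Mcm4 and Mcm7). SOX9 was at 10 and 1 of the 16, and SOX8 at 3 and 1 (18.8% and 6.25%). Of 9 progenitor genes, H3K4me3 was at 9 and 4, SOX9 at 9 and 2, and SOX8 at 7 and 0. Of 10 rod genes, H3K4me3 was at 5 and 10, SOX9 at 3 and 10, and SOX8 at 2 and 6. Promoter marks of retinal genes were thus present in the lists at both ages. Of 8 genes of tissues other than retina, H3K4me3 was at 1 at each age (Sftpc). H3K27ac was at 5 of them at P2 (62.5% against 78.2% of all genes) and at 0 at P17 (against 53.9%). A P2 H3K27ac peak was thus common at genes of other tissues too. SOX9 was at 0 of the 8 at both ages, and SOX8 at 0 at P2 and at 1 at P17 (Sftpc). Over the same interval the histone genes with H3K4me3 numbered 47 and 39. These lists do not measure the share of each cell type. The part of any change in cell types in the SOX peaks at histone genes was not tested.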

How the data were processed

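The 8 lists analysed here give peak positions, as the authors deposited them: chromosome, start and end, with the name, score and strand fields empty or 0 in every line. The submitters' processing notes name Bowtie2, SEACR and GRCm38. Versions, thresholds, the use of IgG and the way in which libraries were joined are not given in the sources used here, and the depth of the libraries is unknown. The 4 IgG libraries were not analysed here. Starts were turned to 1-based positions. Genes and promoters (250 bases before to 50 after the start) came from RefSeq tables of GRCm38.p6. A gene had a peak when at least 1 bp of a peak lay in the gene or 1 kb on either side. Shares of members are given beside the same share of all genes, with no test. Overlap counting was tested on simulated data. Members, gene lists and alternatives were chosen with earlier results of these data known. Genes were named when they had a SOX peak or differed in H3K4me3 between ages. For the supply genes this covers the first 15 in table order, and all that differed in H3K4me3 between ages. Promoters were chosen by number of lists. The alternatives were 8 other settings (windows, peak width, list length, members left out) and 1 chosen after the data were seen, leaving out copied promoters. Analyses used Python 3.11.15 and numpy 2.4.6.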

Additional observations from a re-analysis of the deposited data

How the results depend on the processing

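Counts are shares of members. In 100 of 108 comparisons with an alternative, the share stayed within 1.5 times the main one, and the P17 SOX8 and SOX9 shares were 0 in all 9 alternatives. The 108 are not independent. They include the P17 SOX shares, and the shares of members that lost a SOX peak, which repeat the P2 SOX shares. The tally therefore overstates how much was checked. The shares outside the 1.5 limit were these. With 5 kb flanks, P2 SOX8, all of it absent at P17, was at 34.3% in place of 22.4%. With peaks trimmed to 500 bp, P17 H3K27ac was at 44.8% in place of 73.1%. H3K27ac at P2 and not at P17, 14.9% in the main count, was 7.46% with 5 kb flanks, 29.9% with trimmed peaks, 32.8% with the wider 50% of each list, 7.46% with the widest peaks in equal number and 27.8% without the largest cluster, which held none of these members. Set against all genes, members were below in H3K27ac at P2 not P17 in the main count (14.9% against 24.9%) and above with trimmed peaks (against 27.7%), with equal numbers (against 7.10%) and without the largest cluster (against 24.9%). P2 and P17 H3K27ac and P17 H3K4me3 were above all genes in the main count and below with trimmed peaks and without the largest cluster. P2 H3K4me3, SOX8 and SOX9 stayed above all genes in all 9 alternatives. No paired analysis was possible because the result comes from no test and the lists name no replicate. A planned comparison of protein sequences was not run. The lists hold no counts, so no interval for depth can be given.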

Other observations

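The clusters also hold 10 other protein-coding genes. Trim17, whose record overlaps H2aw, had both marks and both SOX factors at P2 and both marks with no SOX peak at P17. Zfp184, a zinc finger gene within the first Hist1 cluster, had both marks at both ages and no SOX peak. Pom121l2, Prss16 and Slc17a2 had no peak in any list. Hfe, a regulator of iron uptake, Trim38 and Slc17a4 had H3K27ac at both ages and no H3K4me3. Slc17a1, a phosphate transporter gene, had H3K27ac at both ages and H3K4me3 at P17 only, and Slc17a3 had H3K27ac at P17 only. In the second Hist1 cluster, H3K27ac peaks covered 19.9% of the span at P2 and 40.9% at P17, while in the first they covered 12.6% and 3.99%. The share covered by H3K4me3 was 13.1% and 12.5% in the second and 12.4% and 5.97% in the first.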
